A study of Homo sapiens with 2 samples.

Results

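The 10 genes described here encode the enzymes that make serine from a glycolytic intermediate and the enzymes that split serine and carry its one-carbon unit on folate in mitochondria and in the cytosol. They were taken by NCBI gene ID from the 27685 gene IDs of both tables together. All 10 passed a minimum of 1 TPM in at least 1 library, as did 14078 genes in all. PHGDH, PSAT1 and PSPH make up serine synthesis, SHMT2, MTHFD2, MTHFD2L, MTHFD1L and ALDH1L2 are the mitochondrial folate enzymes, and SHMT1 and MTHFD1 are the cytosolic ones. The study measured RNA of H1299, an established human non-small cell lung cancer line, at passage 10 to 15, grown with fetal bovine serum. There was 1 library of cells given 5 mM metformin, for a time not stated in the labels, and 1 library of cells without the drug (control). Metformin is a diabetes drug known to inhibit complex I of the respiratory chain.

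In serine synthesis, PHGDH oxidises a phosphorylated glycolytic intermediate, PSAT1 transfers an amino group from glutamate to the product, and PSPH removes the phosphate. SHMT2 in mitochondria or SHMT1 in the cytosol then converts serine to glycine and loads the released carbon on tetrahydrofolate. In mitochondria MTHFD2 or MTHFD2L oxidises that carbon and MTHFD1L releases it as formate, while ALDH1L2 burns it to CO2 with a gain of NADPH. In the cytosol the trifunctional MTHFD1 reloads formate on folate for purine and thymidylate synthesis. The transcription factor ATF4, which is induced by amino acid shortage and by mitochondrial stress, is a known activator of the serine synthesis and mitochondrial folate genes.

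Levels are given in TPM, an abundance corrected for transcript length and relative to all transcripts of a library. This unit is meant for comparison between genes, but the levels of MTHFD2L, MTHFD1L and, less so, SHMT2 depend on how the value was formed. With 1 library per group there was no test, and each 95% interval covers counting error only (copies made by PCR were not told apart), from an estimated number of read pairs (31.7 M in the metformin library and 28.7 M in the control library). Among markers of the cell line, KRT18, a keratin, was at 954 TPM in metformin and 553 TPM in control, and vimentin (VIM) was at 4962 TPM in metformin and 4378 TPM in control. The epithelial markers EPCAM and CDH1 stayed under 1 TPM in both libraries. No marker of leukocytes (3 genes, summing to 0.0266 TPM in metformin and 0.232 TPM in control), of fibroblasts (3 genes, 0.603 TPM in metformin and 0.290 TPM in control) or of endothelium (2 genes, both at 0) reached 1 TPM in either library. In such bulk RNA, fewer cells of a kind and less RNA per cell cannot be told apart.

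Serine synthesis genes were higher in metformin, most at the entry step and least at the last. PHGDH (NCBI gene 26227, chromosome 1, 120254419 to 120286849 of hg19, plus strand) was at 199 TPM in metformin and 90.8 TPM in control. The TPM ratio of metformin to control was 2.19 (95% counting interval 2.08 to 2.31). PHGDH stood 765th in level among all genes in metformin and 2013th in control. PSAT1 (NCBI gene 29968, chromosome 9, 80911991 to 80945009) was at 395 TPM in metformin and 237 TPM in control, a ratio of 1.67 (1.62 to 1.72). It was the most abundant of the 10 transcripts in both libraries. PSPH (NCBI gene 5723, chromosome 7, 56078744 to 56119268, minus strand) was at 50.3 TPM in metformin and 46.2 TPM in control. Its ratio of 1.09 had an interval of 1.01 to 1.18, so the last step of the pathway differed little next to the first. The 3 genes together summed to 644 TPM in metformin and 374 TPM in control, a ratio of 1.72 (1.68 to 1.77).

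**Figure D1:**
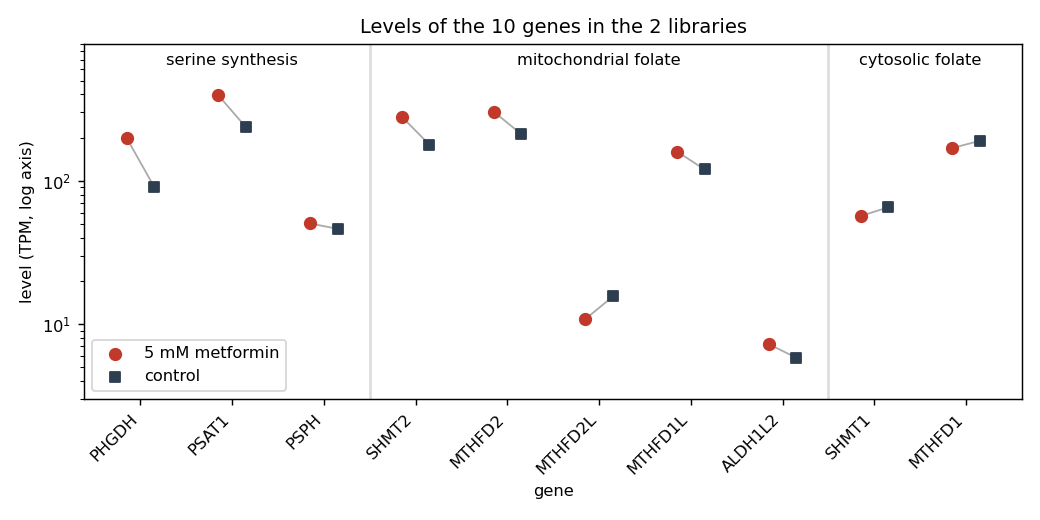
TPM on a log axis of the 10 genes in the metformin library (red circles, left of each pair) and the control library (dark squares, right), with 1 library per group and lines joining the values of a gene. PHGDH has the steepest line, at 199 TPM in metformin and 90.8 TPM in control, and both cytosolic genes and MTHFD2L slope the other way.

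Of the 5 mitochondrial folate enzymes, 4 were higher in metformin. SHMT2 (NCBI gene 6472, chromosome 12, 57623356 to 57628718), which takes the carbon from serine, was at 280 TPM in metformin and 179 TPM in control. The ratio was 1.56 (1.5 to 1.63). MTHFD2 (NCBI gene 10797, chromosome 2, 74425690 to 74442424), the mitochondrial dehydrogenase and cyclohydrolase known for its high level in tumours, was at 304 TPM in metformin and 212 TPM in control, a ratio of 1.43 (1.40 to 1.47). MTHFD1L (NCBI gene 25902, chromosome 6, 151186815 to 151423023), which releases formate, was at 160 TPM in metformin and 120 TPM in control, a ratio of 1.34 (1.22 to 1.46). These 3 enzymes lie in sequence on the route from serine to formate, and in TPM the ratio was largest for the first of them. That order depends on the processing. With a trend over GC content and length removed, the log2 difference of MTHFD2 (0.65) was larger than that of SHMT2 (0.56). ALDH1L2 (NCBI gene 160428, chromosome 12, 105413562 to 105478341, minus strand), on the branch that oxidises the carbon to CO2, was low, at 7.23 TPM in metformin and 5.81 TPM in control. Its ratio was 1.24 (1.11 to 1.39). MTHFD2L (NCBI gene 441024, chromosome 4, 74988990 to 75168814), a paralog of MTHFD2, was the exception, at 10.8 TPM in metformin and 15.6 TPM in control. Its ratio of 0.695 had an interval of 0.402 to 1.19, which includes 1. The interval rests on 27 read pairs in metformin and 33 in control. These were estimated from its coverage, which was low beside its TPM, so the true number of pairs may be higher.

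The level of MTHFD2L also depends on how the value was formed. The tables also give mean coverage, which for many genes stood in 1 fixed ratio to FPKM. For MTHFD2L in control the coverage was 7.5% of the value at that ratio, for MTHFD1L 16.6%, for SHMT2 74.2%, and for the other 7 genes between 97.1% and 100%. From coverage, MTHFD2L came to a TPM equivalent of 0.821 in metformin and 1.17 in control. MTHFD2 then exceeded it 360-fold in metformin and 176-fold in control, whereas TPM gave 28.1-fold in metformin and 13.6-fold in control. The ratio of metformin to control was little affected, at 0.703 from coverage for MTHFD2L and 1.34 for MTHFD1L.

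Both cytosolic folate enzymes lay slightly under their control level. MTHFD1 (NCBI gene 4522, chromosome 14, 64854759 to 64926725) was at 169 TPM in metformin and 190 TPM in control, a ratio of 0.892 (0.863 to 0.921). SHMT1 (NCBI gene 6470, chromosome 17, 18231174 to 18266877, minus strand) was at 56.7 TPM in metformin and 65.2 TPM in control, a ratio of 0.870 (0.816 to 0.927). Over all measured genes the median difference of log2(TPM + 1) was -0.08, and those of MTHFD1 and SHMT1, -0.16 and -0.20, lay not far below it. Of the measured genes, 39.6% had a difference as low as that of MTHFD1 or lower. MTHFD1 overlaps ZBTB25 on the opposite strand over 10902 bases and SHMT1 overlaps SMCR8 over 197, and the sources used here do not say if reads were assigned by strand. SHMT2 overlaps COXFA4L2, which was at 2.68 TPM in metformin and 0.861 TPM in control, over 33 bases.

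**Figure D2:**
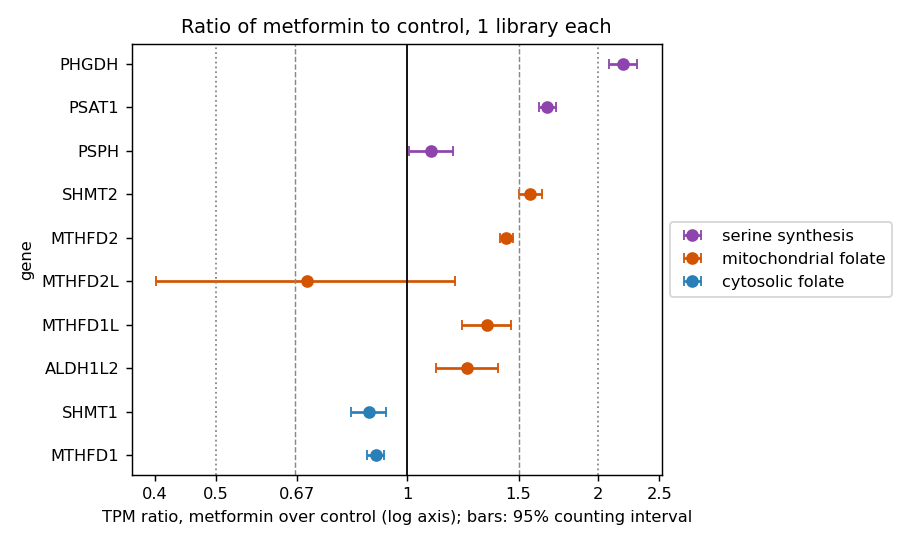
TPM ratio of metformin to control on a log axis for each gene, with the 95% counting interval as a bar, 1 library per group, and dashed and dotted lines at 1.5-fold and 2-fold. The serine synthesis genes spread between 1.09 and 2.19, 4 of the 5 mitochondrial enzymes lie above 1, and both cytosolic enzymes lie below it.

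Counted on the scale of log2(TPM + 1), PHGDH was the only member higher by 2-fold or more in metformin, while 1.51% of all measured genes were. None was lower by 2-fold, as 1.24% of measured genes were. PHGDH, PSAT1 and SHMT2 were higher by 1.5-fold or more, 3 of 10 members, beside 5.40% of measured genes, and none was lower by 1.5-fold, beside 7.03%. After centring both libraries on the median gene, MTHFD2 joined them, making 4 of 10, beside 997 of 14078 measured genes. Among all measured genes the share of higher ones among those past 1.5-fold was 58.5% in place of 43.4%. At 2-fold the same centring gave 66.8% in place of 54.9%. The median difference of the 10 members was 0.34, with 7 above 0 and 3 below, whereas 40.3% of all measured genes lay above 0. The difference of PHGDH was as large as or larger than that of 99% of measured genes, that of PSAT1 than 96.7%, that of SHMT2 than 95.5%, that of MTHFD2 than 93.2% and that of MTHFD1L than 90.3%.

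**Figure D3:**
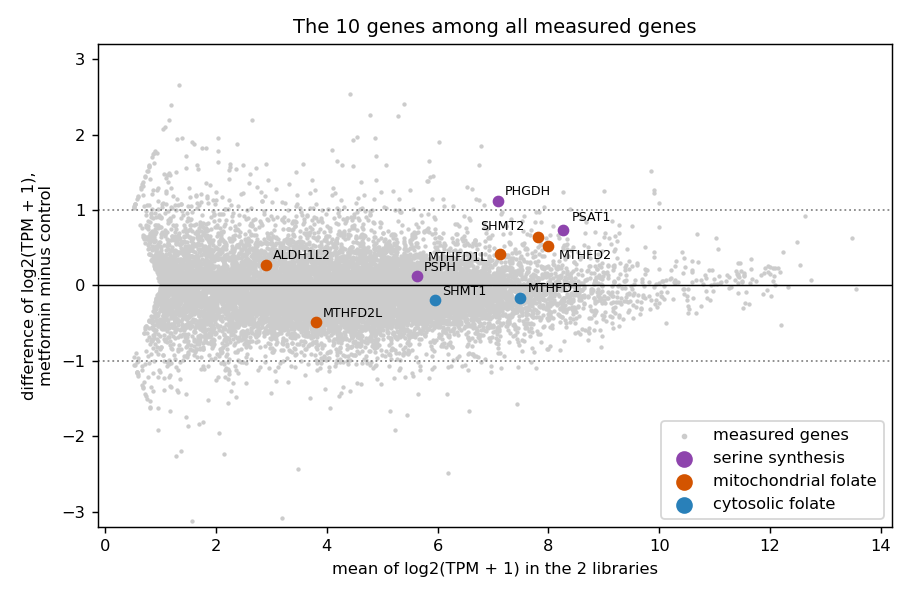
Difference of log2(TPM + 1), metformin minus control, against the mean level for all 14078 measured genes (grey; 7 lie beyond the plotted range) with the 10 members coloured by group and dotted lines at 2-fold. PHGDH lies above the upper line, and the other 9 members lie between the lines.

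Across all measured genes the difference was related to the share of G and C in the transcript, with a Spearman correlation of 0.35 (a description, as genes are not independent replicates). Its part in the values of the members was not tested beyond the removal given here. The canonical transcript of PHGDH holds 58.1% G and C and that of SHMT2 56.1%, while PSAT1 and MTHFD2 hold 42.5% and 41.0%, against a median of 48.3% for measured genes. With the trend over GC content and length removed, the log2 difference was 1.02 for PHGDH, 0.85 for PSAT1, 0.56 for SHMT2 and 0.65 for MTHFD2. In the values as deposited these differences were 1.12, 0.73, 0.64 and 0.52. MTHFD2L, with the lowest GC content of the members (36.9%), was at -0.26 with the trend removed and -0.49 as deposited. The removal put SHMT2 under 1.5-fold and MTHFD2 over it.

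The balance between compartments was further to the mitochondrial side in metformin. The 5 mitochondrial enzymes summed to 762 TPM in metformin and 532 TPM in control, a ratio of 1.43 (1.40 to 1.46). The 2 cytosolic enzymes summed to 226 TPM in metformin and 255 TPM in control, a ratio of 0.886 (0.861 to 0.912). Mitochondrial over cytosolic sums were 3.37 in metformin and 2.09 in control, so the quotient of these ratios was 1.62 (1.56 to 1.67). It was 1.66 from coverage and 1.65 with the trend over GC content and length removed, while a scaling of whole libraries cannot move it. The mitochondrial sums themselves would be lower from coverage, which put SHMT2 at 208 in metformin and 133 in control, and also lowered MTHFD1L and MTHFD2L. For sums, the read pairs of the genes were pooled as 1 count. MTHFD1L and MTHFD2L had few pairs for their TPM, so the intervals of the mitochondrial sum and of the quotient are likely too narrow.

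Pairs of enzymes that do the same reaction in the other compartment showed the same direction. SHMT2 over SHMT1 was 4.93 in metformin and 2.74 in control, a quotient of 1.80 (1.67 to 1.94). MTHFD1L over MTHFD1 was 0.945 in metformin and 0.631 in control, a quotient of 1.5 (1.36 to 1.64). The level of MTHFD1L in that pair depends on the value used: its coverage gave a TPM equivalent of 26.6 in metformin and 19.8 in control, far below MTHFD1 in both. Within mitochondria MTHFD2 over MTHFD2L had a quotient of 2.06 with a wide interval, 1.24 to 3.44. ALDH1L1, the cytosolic counterpart of ALDH1L2, was listed at 0 in both libraries. In serine synthesis PHGDH over PSPH was 3.96 in metformin and 1.97 in control, and PSAT1 over PSPH was 7.84 in metformin and 5.13 in control, so the first enzymes stood further above the last one in metformin.

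**Figure D4:**
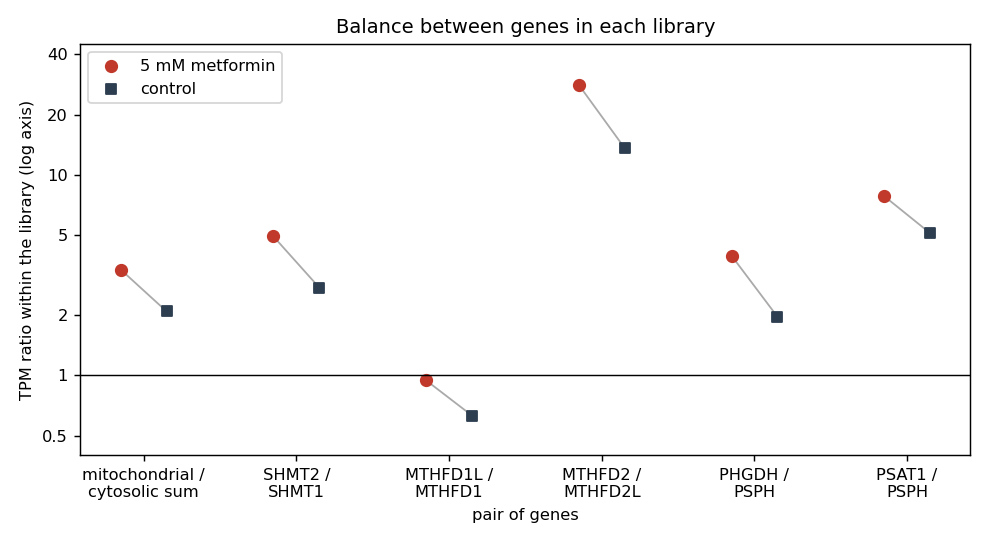
TPM ratio between genes within each library on a log axis, metformin as red circles on the left of each pair and control as dark squares on the right. All 6 ratios are higher in metformin, among them the mitochondrial over cytosolic sum, at 3.37 in metformin and 2.09 in control.

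The order of levels differed between the libraries. In metformin it ran PSAT1, MTHFD2, SHMT2, PHGDH, MTHFD1, MTHFD1L, SHMT1, PSPH, MTHFD2L and ALDH1L2. In control it ran PSAT1, MTHFD2, MTHFD1, SHMT2, MTHFD1L, PHGDH, SHMT1, PSPH, MTHFD2L and ALDH1L2. SHMT2 and PHGDH therefore stood above MTHFD1 in metformin and below it in control. Among neighbours only MTHFD1 and MTHFD1L in metformin did not differ beyond counting error, with a ratio of 1.06 (0.997 to 1.12). The places of MTHFD2L and MTHFD1L rest on their TPM. By coverage MTHFD2L would stand below ALDH1L2, and MTHFD1L below both SHMT1 and PSPH, in metformin and in control. By distance on log2(TPM + 1) over the 2 libraries, the protein-coding genes nearest to PHGDH among 12150 were MKNK2, CBX1 and MAGED2, at distances of 0.15, 0.16 and 0.32. Those nearest to MTHFD2L were ZNF570, SPIN4 and PRMT6, all within 0.04.

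The letters TGATGCAA, a core form of the C/EBP-ATF response element through which ATF4 is known to act, were searched on both strands from 1000 bases before to 2000 after each deposited gene start on the hg19 genome. They occurred in 5 of the 10 members, PHGDH, PSAT1, SHMT2, MTHFD1L and ALDH1L2, and in 5.60% of all 14077 measured genes with such a window. Of the other known ATF4 targets 13 of 19 held them, and of the S phase genes 1 of 12. Neither SHMT1 nor MTHFD1 held them, nor did PSPH, MTHFD2 or MTHFD2L. In a shorter window, from 250 bases before to 50 after the same starts, none of the 10 members held them. There 0.44% of measured genes and 2 of 19 other known ATF4 targets did. The stretches are shown because each of the 5 genes has a match in intron 1 of its canonical transcript. They read 5′ to 3′ on the strand of the gene, with the match in capitals, either as written or as its reverse complement TTGCATCA.
PHGDH, chr1:120255409-120255438: cgcccctcgtcTGATGCAAgactgctccgt
PSAT1, chr9:80912297-80912326: ccctaggcgctTTGCATCAgcgtgcacagc
SHMT2, chr12:57623942-57623971: agccctgcagaTGATGCAAccgagcttcac
SHMT2, chr12:57623964-57623993: agcttcactgcTTGCATCAggcaggggtcc
MTHFD1L, chr6:151187482-151187511: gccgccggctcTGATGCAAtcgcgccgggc
ALDH1L2, chr12:105477499-105477528: gcgccttggaaTTGCATCAgctcctccaga
ALDH1L2, chr12:105477212-105477241: ctggcccaaacTTGCATCAaaggaaaagct
PHGDH and ALDH1L2 each hold a further match upstream of the transcript, at 947 and 967 bases from its start.

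With the sixth letter of the core left free (TGATGNAA), MTHFD2 too had a match in intron 1, and MTHFD2L had matches near its deposited start, far upstream of its canonical transcript.
MTHFD2, chr2:74426329-74426358: gctgctgcagcTGATGAAAtcgcggagccg
This looser form occurred in 7 of the 10 members, in all 5 mitochondrial folate genes and in neither cytosolic one, and in 29.1% of all measured genes. Of the other known ATF4 targets 19 of 19 held it, and of the S phase genes 4 of 12. GART and ATIC of purine synthesis, which differed little between the libraries, held it too. The RefSeq promoter windows (GRCh38.p14) are shorter, with 250 bases before and 50 after a start, and cover 7 of the members. There TGATGNAA occurred in MTHFD1L alone of these 7, and in 3.62% of 35116 windows. CACGTG, the E-box bound by MYC and by TFEB family factors, occurred there in MTHFD1L and MTHFD1 and in 7.26% of windows. In MTHFD1 it lies 15 bases before the start.
MTHFD1, chr14:64388326-64388355 of GRCh38.p14: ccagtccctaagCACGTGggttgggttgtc
A match describes letters and is no evidence that a factor was bound, and the wider window was chosen with the expression values known.

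The known regulators of these genes were mostly higher in metformin as well. ATF4 was at 683 TPM in metformin and 531 TPM in control, a ratio of 1.29 (1.25 to 1.33). ATF3, a stress-induced factor, was at 17.5 TPM in metformin and 8.11 TPM in control, a ratio of 2.15 (1.52 to 3.11) and the largest difference of this list. CEBPG, a dimerisation partner of ATF4 named after its value was known, had a ratio of 1.6 (1.51 to 1.69). MYC, which also activates serine genes, had a ratio of 1.24 (1.2 to 1.27). NFE2L2, which encodes NRF2, stood at 0.972 of control, the smallest difference. In all, 5 of these 6 genes lay above 0, beside 40.3% of all measured genes, with a median difference of 0.52. The 19 measured ATF4 targets outside the pathway all lay above 0, but they were listed with earlier results of these data known. Of them 12 were higher by 1.5-fold or more, beside 5.40% of all measured genes. The median of these targets was 0.70. On that log2(TPM + 1) scale they lay between 0.11 for XPOT, a tRNA exporter, and 1.599 for DDIT4, an mTORC1 inhibitor. ATF3 and CEBPB stand in both lists. Among the members, PHGDH, PSAT1, PSPH, SHMT2, MTHFD2, MTHFD1L and ALDH1L2 lay within that range, and MTHFD2L, SHMT1 and MTHFD1 lay below it. The range is wide, as only 71.9% of measured genes had a difference as low as that of XPOT or lower. For DDIT4 that share was 99.7%. PSPH, at 0.12, lay close to the lower end. As the range comes from a list chosen with earlier results known, a place within it does not set a member apart. The part of ATF4 in the values of the members was not tested.

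Outside the members, the pathway had no common direction. Of 34 measured genes 12 lay above 0 and 22 below, with a median of -0.15. Of all measured genes 40.3% lay above 0, with a median of -0.08. Past 1.5-fold, 4 lay higher and 4 lower, beside 5.40% higher and 7.03% lower among all measured genes. The other folate enzymes had a median of -0.23 over 9 measured genes. FPGS, which adds glutamates to folate so that it stays in the cell, had the largest ratio, 1.30 (1.21 to 1.41). TYMS, thymidylate synthase, was at 297 TPM in metformin and 457 TPM in control, a ratio of 0.650 (0.630 to 0.671). TYMS overlaps ENOSF1 and TYMSOS on the other strand. Among the 10 members only MTHFD1 shared words of the read length with another gene, 1.44% of them with the pseudogene MTHFD1P1.

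Transport genes lay on both sides of 0. SLC25A32, the mitochondrial folate carrier, was at 38.0 TPM in metformin and 48.6 TPM in control, a ratio of 0.782 (0.728 to 0.839). SFXN1, the mitochondrial serine transporter, was at 44.8 TPM in metformin and 55.6 TPM in control, a ratio of 0.805 (0.760 to 0.853). The transport list had a median of -0.25 over 8 measured genes, from SLC19A1, the reduced folate carrier of the plasma membrane, at a ratio of 0.733 (0.675 to 0.795), to SLC1A4, a transporter of neutral amino acids including serine, at 1.92 (1.64 to 2.26). SFXN3, another sideroflexin, picked with its value in view, was at 47.8 TPM in metformin and 38.2 TPM in control, a ratio of 1.25 (1.17 to 1.34).

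Glycine cleavage and other mitochondrial one-carbon enzymes lay mostly on the lower side. The glycine cleavage system splits glycine, the product of SHMT2, and loads its carbon on folate. Of 7 measured genes in the whole list, which also holds enzymes outside that system, 6 lay below 0, with a median of -0.41. Among all measured genes 40.3% lay above 0. GCSH, the lipoyl carrier protein of the system, was at 49.5 TPM in metformin and 87.4 TPM in control, a ratio of 0.566 (0.524 to 0.612). AMT, its aminomethyltransferase, was the highest, at a ratio of 1.17 with an interval of 0.716 to 1.92. GART and ATIC, which use formyl-tetrahydrofolate to build purines, stood at 0.956 and 0.993 of control, and their median turned from below to above 0 with centring.

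Users of serine had a median of 0.44, with 5 of 8 measured genes above 0, beside 40.3% of all measured genes. SDSL, a serine dehydratase-like enzyme, had the largest ratio, 1.84 (1.49 to 2.28), and PTDSS1, which puts serine into phosphatidylserine, the smallest, 0.826 (0.802 to 0.850). CBS, which condenses serine with homocysteine, and SARS1, which charges tRNA with serine, were likewise higher by 1.5-fold or more. CBS and SARS1 were picked with their values in view.

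Genes of S phase were lower in metformin, all 12 of them, with a median of -0.68. Of them 9 were lower by 1.5-fold or more, beside 7.03% of all measured genes. They ran from RRM2, a subunit of ribonucleotide reductase, at a ratio of 0.492 to MCM6, a helicase subunit, at 0.748. This list too was chosen with earlier results of these data known. MTHFD1 and SHMT1 supply one-carbon units on folate for the synthesis of thymidylate and purines, which S phase uses. Their ratios of 0.892 and 0.870 were nearer to 1 than that of any S phase gene of the list. The part of a lower share of cycling cells in the values of the cytosolic enzymes was not tested.

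**Figure D5:**
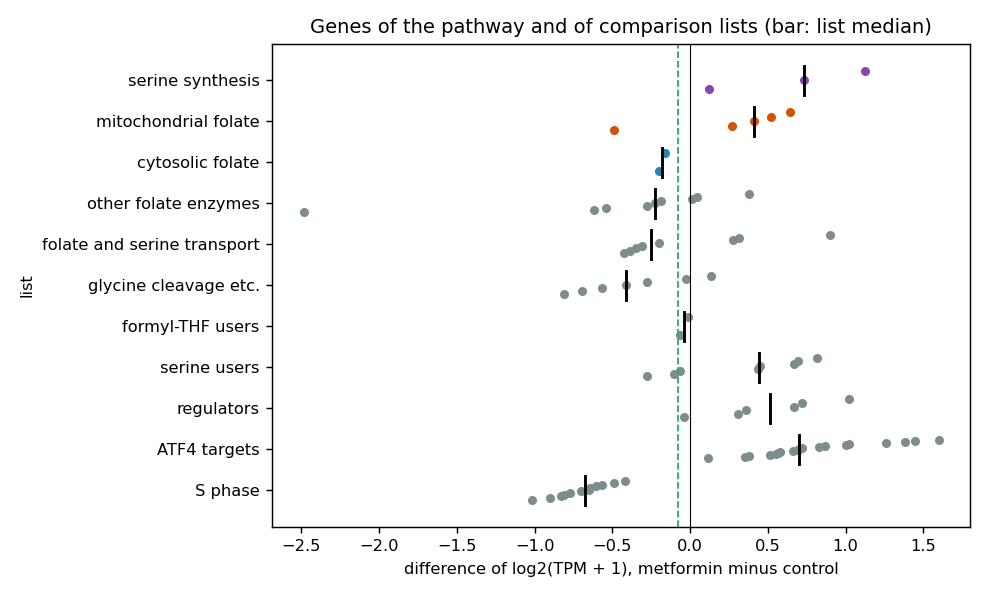
Difference of log2(TPM + 1), metformin minus control, of each measured gene in 11 lists, with the list median as a black bar, 0 as a thin line and the median of all measured genes (-0.08) as a dashed green line. The medians of serine synthesis (0.73), mitochondrial folate enzymes (0.41) and ATF4 targets (0.70) lie to the right, and those of other folate enzymes, transport, glycine cleavage and S phase lie to the left.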

How the data were processed

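Per the labels, a TruSeq Stranded mRNA kit was used, with Illumina sequencing and Bowtie2 mapping to hg19. Trimmomatic 0.38 and HISAT2 come from the submitters' processing notes. The program that computed abundances was not named there. Per the file headers, the authors deposited TPM, FPKM and coverage (a signal of mean read depth) per NCBI gene ID. TPM was used, FPKM and coverage in alternatives. Symbols came from a RefSeq table, and of 25364 also in GENCODE 44 on GRCh37, 99.2% overlapped their deposited position.

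Depth was the ceiling of coverage over FPKM (6.40 Gb in metformin, 5.80 Gb in control), assuming 202 bases per read pair. Pairs per gene were coverage times canonical length, a low estimate, giving Clopper-Pearson intervals, or for quotients Poisson errors on the log scale. Differences are of log2(TPM + 1), so they understate changes of low genes. Functions were tested on simulated data. The members, lists and rule for naming (extremes of each list and set genes) were chosen with earlier results of these data known. No protein sequences were used here. Python 3.11.15, numpy 2.4.6, pandas 2.3.3 and scipy 1.17.1 were used. Some genes of the lists are not reported here by name.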

Additional observations from a re-analysis of the deposited data

How the results depend on the processing

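With 1 library per group no replicate could be left out, and no paired analysis was possible because each group has 1 library. Over the 9 alternatives for unit, pseudocount, scaling, GC trend and repeated IDs, none of the 10 members changed direction. The log2 difference ran from 1.02 to 1.21 for PHGDH, 0.72 to 0.85 for PSAT1, 0.56 to 0.73 for SHMT2, 0.51 to 0.65 for MTHFD2, 0.38 to 0.50 for MTHFD1L, -0.52 to -0.25 for MTHFD2L and -0.16 to -0.08 for MTHFD1. Scaling of whole libraries cannot move a quotient of ratios. That of SHMT2 over SHMT1 was 1.79 from coverage and 1.74 with the GC and length trend removed, and that of MTHFD1L over MTHFD1 was 1.51 and 1.46. Members higher by 1.5-fold numbered 3 or 4 and other pathway genes 3 or 4. Other pathway genes lower by 1.5-fold numbered 4 in the main setting. They numbered 3 with a pseudocount of 5, with centring on the median and with trimmed mean scaling. With FPKM they numbered 2 (the cause was not tested), and with the GC trend removed 5. The value for AMT is limited by depth. The interval of MTHFD2L rests on a number of pairs estimated from a coverage that was low beside its TPM.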
